A study of Mus musculus with 18 samples.

Results

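The ionotropic GABA-A receptor genes and the ionotropic and metabotropic glutamate receptor genes were followed on 18 arrays of mouse hypothalamus, pituitary and ovary. Members were the genes of these families, by symbol, that the array's annotation names alone on a transcript cluster (a set of probes for 1 transcript); of 45 such genes in the mouse annotation, 39 were found among the 22180 genes of the table. They comprise 16 GABA-A subunits, 4 AMPA, 5 kainate and 6 NMDA receptor subunits, 1 delta receptor subunit and 7 metabotropic glutamate receptors. The other 6 genes were not analysed here. The choice used symbols and not measured differences, except that, for the 5 members with 2 clusters, the one reading highest on average was kept.

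The mice were females of a strain labelled BABL/c, taken as 10 pairs of littermates at 6 weeks of age. In every pair 1 littermate went to the control group and 1 to the stress group, for which the labels give a transport of 1000 km, of nearly 10 h and of 50 km/h on average. Those 3 figures cannot all hold, and which of them is off is unknown. Both groups were housed in the same laboratory and superovulated at 9 weeks. For each tissue and group the RNA of the mouse with the most oocytes (high), of the mouse with the fewest (low) and of a pool of the other 8 mice was put on 1 array each, so a group had 3 arrays of which 2 were single mice, and by these labels the same mice gave all 3 tissues. Since the classes differ in oocyte number and in pooling, the spread within a group holds both, and p-values measure that spread. Values are deposited log2 levels, on which a difference of 1 is a doubling, and their small number per group limits the precision.

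GABA-A receptors are chloride channels built of 5 subunits, usually of alpha, beta and gamma type, through which GABA inhibits neurons of the adult brain. AMPA, kainate and NMDA receptors are cation channels opened by glutamate, and metabotropic glutamate receptors act through G proteins. In the hypothalamus both transmitters reach the neurons that drive the pituitary, gonadotropin-releasing hormone neurons among them.

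Tissue markers separated the arrays by label. In the labelled hypothalamus 11 of 15 measured hypothalamic markers read higher on all 6 arrays than on the 12 others (not Hmx2, Hmx3, Gal and Kiss1), in pituitary 11 of 11 pituitary markers did so, and in ovary 12 of 13 ovarian markers (not Amh). Several pools also held other tissues' transcripts. The mean of the 13 ovarian markers was 7.01 in the stressed pituitary pool and 6.19 in the stressed hypothalamus pool, against 4.52 to 4.91 on the other 10 arrays of these tissues. Summed as linear signal, the ovarian list reached 5020 in stressed pituitary (lowest 404) and 406 to 518 in control pituitary. The pituitary markers averaged 6.04 and 6.37 in the control and stressed ovary pools, against 4.41 to 4.75 in single-mouse ovaries. No marker was at 0. A bulk array cannot tell fewer cells of a type from less RNA per cell.

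Receptor genes were highest in hypothalamus, judged gene by gene. Of the 39 members, 33 were higher in hypothalamus than in pituitary (19.6% of all genes passed in that direction) and 32 were higher than in ovary (21.5%), while 0 were lower in either comparison (limma with the animal as a block, adjusted p under 0.05; lower calls among all genes 19.9% and 25.7%). Between pituitary and ovary, 21 members were higher in pituitary (19.2%) and 2 in ovary (21.8%). On 28 members all 6 hypothalamus arrays read above the 12 other arrays, which held for 8.76% of all genes; for pituitary and for ovary no member (0) did so, against 3.11% and 8.64% of genes. The median member differed by 1.74 between hypothalamus and pituitary, 2.90 between hypothalamus and ovary and 0.79 between pituitary and ovary, where the medians of all genes were -0.04, -0.03 and 0.01. All 3 contrasts passed in the order hypothalamus, pituitary, ovary for 21 members, against 5.3% of genes. Without the 6 pool arrays, 30 members passed as higher than pituitary and 32 as higher than ovary.

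**Figure D1:**
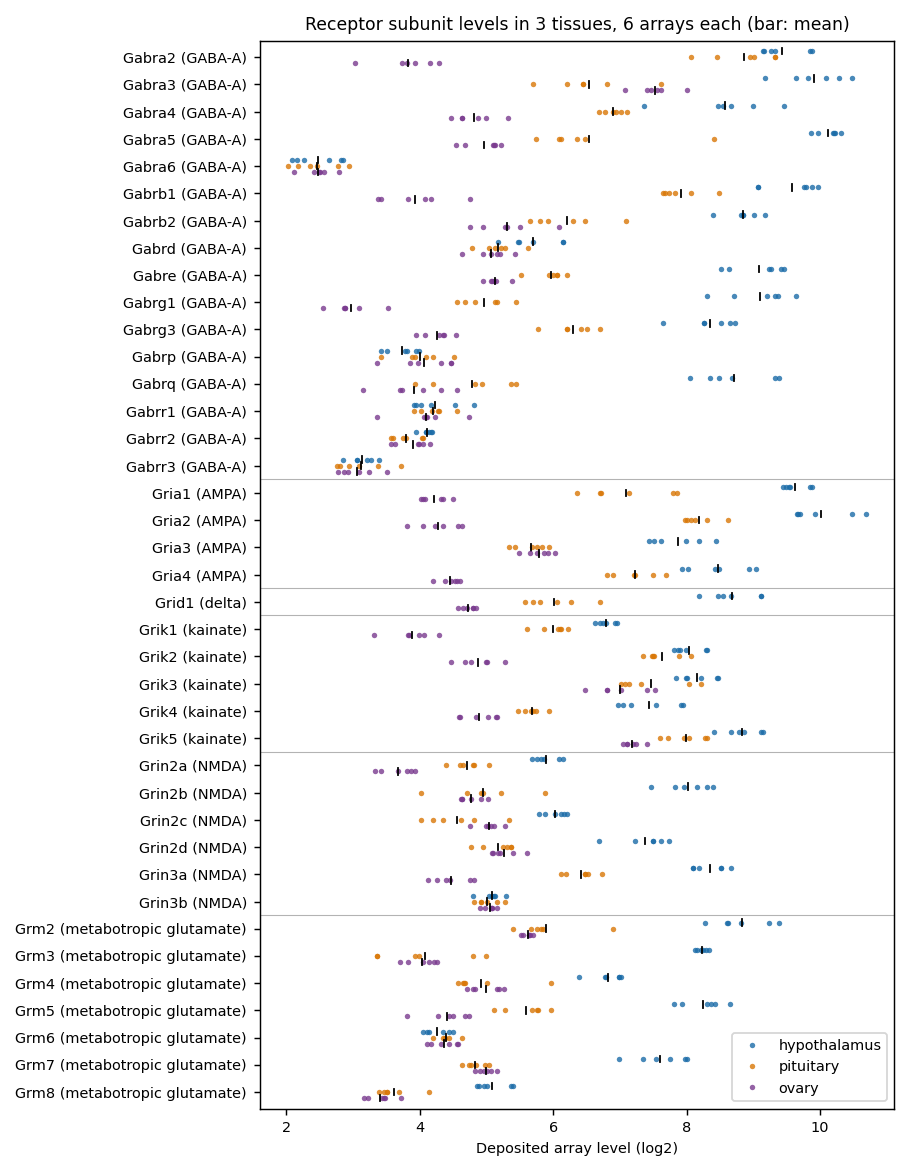
Deposited log2 level of each of the 39 receptor genes on the 6 arrays of hypothalamus, pituitary and ovary; each point is 1 array and each black bar a tissue mean. Levels are comparable across tissues within a gene, not between genes. For 28 members the 6 hypothalamus points lie to the right of the 12 others.

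Among the alpha subunits, which with beta subunits form the GABA site, Gabra2 was near its hypothalamic level in pituitary. It read 9.14 to 9.87 in hypothalamus (median 9.29, n = 6), 8.07 to 9.33 in pituitary (median 8.98) and 3.03 to 4.28 in ovary (median 3.86). Pituitary stood 5.04 above ovary (SE 0.21, limma adjusted p = 6.84e-13), whereas hypothalamus stood only 0.58 above pituitary (95% interval 0.15 to 1.01, adjusted p = 0.0309), with overlapping arrays. The latter call was lost under 7 of 13 alternatives, without the pool arrays among them (0.35, adjusted p = 0.243). Gabra4 averaged 8.58 ± 0.70 (SD, n = 6) in hypothalamus, 6.90 ± 0.15 in pituitary and 4.82 ± 0.31 in ovary, a stepwise order without overlap between tissues. Gabra5, known for extrasynaptic receptors, ran from 9.86 to 10.31 in hypothalamus (median 10.19), from 4.54 to 5.22 in ovary (median 5.10) and from 5.74 to 6.48 on 5 pituitary arrays, with 8.41 in the stressed pituitary pool.

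Gabra3 was the member of the alpha group with more signal in ovary than in pituitary. Its 6 ovary arrays ran from 7.08 to 8.00 (median 7.52), its pituitary arrays from 5.70 to 7.61 (median 6.44) and its hypothalamus arrays from 9.18 to 10.47 (median 9.95). Only the stressed pituitary pool, at 7.61, overlapped the ovary range, and pituitary minus ovary was -0.99 (SE 0.21, adjusted p = 0.00078), a call kept under each alternative run. Gabra3 lies on the X chromosome between Gabre (epsilon subunit) and Gabrq (theta subunit), with 1 protein-coding gene between Gabre and Gabra3 and 0 between Gabra3 and Gabrq. Those neighbours were higher in pituitary than in ovary. Gabre averaged 9.09 ± 0.41 (SD, n = 6), 5.96 ± 0.23 and 5.12 ± 0.14 across hypothalamus, pituitary and ovary. Its pituitary minus ovary was 0.84 (SE 0.16, adjusted p = 0.000203). Gabrq averaged 8.71 ± 0.54, 4.78 ± 0.62 and 3.91 ± 0.50, and pituitary minus ovary was 0.87 (SE 0.23, adjusted p = 0.00425).

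The stretches of 250 bases before the start sites of these X-linked neighbours are shown because their tissue orders differ; they differ in CpG content as well (C followed by G, in capitals). They come from RefSeq on build GRCm38.p6, each given 5′ to 3′ on the gene's strand: Gabre at chrX:72274722-72274971 (minus strand), Gabra3 at chrX:72656920-72657169 (minus) and Gabrq at chrX:72824928-72825177 (plus). The first holds 21 CpG, the second 0 and the third 19.
Gabre: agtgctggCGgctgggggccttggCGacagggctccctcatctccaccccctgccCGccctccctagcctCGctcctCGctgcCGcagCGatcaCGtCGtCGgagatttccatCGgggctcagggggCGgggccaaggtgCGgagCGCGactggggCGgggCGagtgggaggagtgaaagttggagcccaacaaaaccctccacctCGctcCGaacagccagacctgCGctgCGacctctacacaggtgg
Gabra3: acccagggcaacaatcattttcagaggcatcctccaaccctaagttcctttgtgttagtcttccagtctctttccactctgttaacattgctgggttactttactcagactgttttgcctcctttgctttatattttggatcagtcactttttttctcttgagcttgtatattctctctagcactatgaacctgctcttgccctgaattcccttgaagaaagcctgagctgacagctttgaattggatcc
Gabrq: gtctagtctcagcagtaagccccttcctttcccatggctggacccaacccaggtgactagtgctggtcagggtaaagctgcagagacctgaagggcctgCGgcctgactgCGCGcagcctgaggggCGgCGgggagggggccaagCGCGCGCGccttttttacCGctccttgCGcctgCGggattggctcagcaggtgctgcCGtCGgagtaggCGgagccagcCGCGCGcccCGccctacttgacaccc

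A second cluster, on chromosome 5, holds Gabrg1, Gabra2, Gabra4 and Gabrb1, with 1 other protein-coding gene between Gabra2 and Gabra4 and 0 between the other neighbours. All 4 had the order hypothalamus, pituitary, ovary, but the steps differed. Gabrg1, a gamma subunit, ran from 8.31 to 9.64 in hypothalamus (median 9.26), from 4.55 to 5.44 in pituitary (median 4.98) and from 2.55 to 3.52 in ovary (median 2.88); hypothalamus stood 4.13 above pituitary (SE 0.19, adjusted p = 5.82e-12) and 6.13 above ovary (SE 0.19, adjusted p = 6.11e-15). Its neighbour Gabrb1, a beta subunit, stood 1.68 above pituitary (SE 0.20) and 5.65 above ovary (SE 0.20). The step from hypothalamus to pituitary was therefore 4.13 for Gabrg1, 0.58 for Gabra2 and 1.68 for both Gabra4 and Gabrb1, with intervals of 3.73 to 4.53, 0.15 to 1.01, 1.25 to 2.11 and 1.27 to 2.09. On chromosome 7 the neighbours Gabrg3 and Gabra5 stood 2.04 (SE 0.17) and 3.59 (SE 0.25) above pituitary. Gabrb2, on chromosome 11 beside Gabra6, stood 2.64 (SE 0.19) above pituitary and 3.54 (SE 0.19) above ovary.

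**Figure D2:**
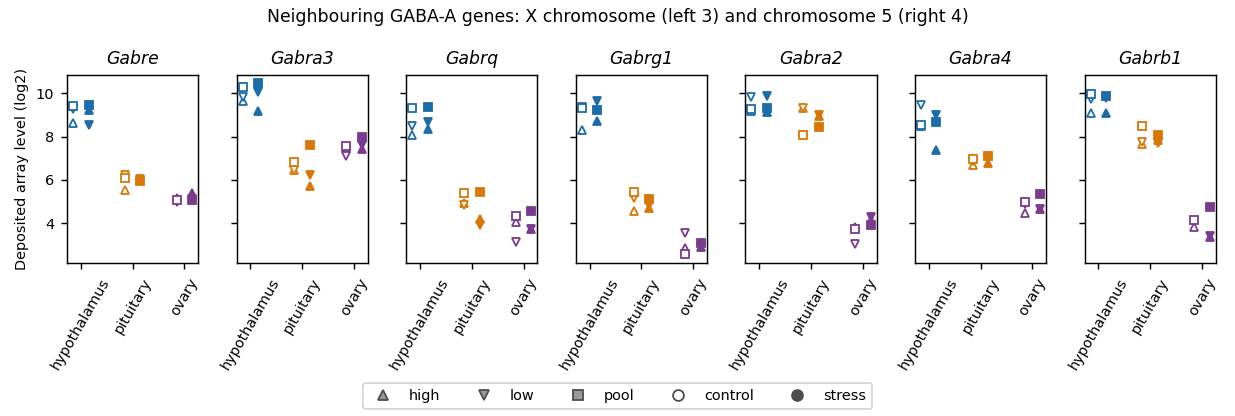
Log2 levels of 7 GABA-A genes that neighbour each other on the X chromosome (Gabre, Gabra3, Gabrq) or chromosome 5 (Gabrg1, Gabra2, Gabra4, Gabrb1), by tissue; triangles pointing up are high-ovulation mice, pointing down low-ovulation mice, squares pools, open control and filled stress. Gabra3 shows ovary above pituitary, and Gabra2 shows pituitary up to 9.33 beside hypothalamus from 9.14.

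The remaining GABA-A subunits differed little by tissue. Gabrd, the delta subunit of extrasynaptic receptors, was 0.51 higher in hypothalamus than in pituitary (SE 0.14, adjusted p = 0.00716) and 0.61 higher than in ovary (SE 0.14, adjusted p = 0.00132), with overlapping arrays. Gabrr2, a rho subunit of a family best known from retina, passed against pituitary only (0.31, SE 0.11, adjusted p = 0.034) and lost that call under 7 of 12 alternatives. Gabra6, known from cerebellar granule cells, read 2.09 to 2.84 in hypothalamus, 2.03 to 2.93 in pituitary and 2.12 to 2.79 in ovary. Gabrp, the pi subunit, averaged 3.73 ± 0.23 (SD, n = 6), 4.0 ± 0.36 and 4.07 ± 0.43 in hypothalamus, pituitary and ovary. With Gabrr1, Gabrr3, Grin3b and Grm6 these 2 formed the 6 members that passed no tissue contrast, as 38.5% of all genes did. Hypothalamus minus ovary had intervals of -0.36 to 0.33 for Gabra6 and -0.69 to 0.02 for Gabrp, and without the control pool arrays Gabrp passed as lower in hypothalamus (-0.48, adjusted p = 0.0404).

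Promoter CpG content was set beside these patterns, as a description. Of the 39 members 29 had a RefSeq window, and where a gene had several windows the highest count in 250 bases before the start was taken. The 6 members without a tissue difference held 1 to 7 CpG (median 2.5), the 15 members with a window among the 21 in the order hypothalamus, pituitary, ovary held 1 to 42 (median 18), and the median over 27025 genes was 6. Those 6 all averaged below the median gene of the table, as did 15 of the 39 members in total. The part of low signal in the missing differences was not tested. The 5 of 9 members with a window that stood apart in hypothalamus alone held 8 to 29 (median 9). These ranges overlap: Gabrg1, with the largest hypothalamus minus ovary difference of the 39 members, held 1 CpG, as did Gabrr2, and Gabra3 held 0. Gabra2 (chr5:71095850-71096099, minus strand, 18 CpG) and Gabra6 (chr11:42321073-42321322, minus strand, 2 CpG) are shown as 2 alpha subunits, with and without tissue differences, CpG in capitals.
Gabra2: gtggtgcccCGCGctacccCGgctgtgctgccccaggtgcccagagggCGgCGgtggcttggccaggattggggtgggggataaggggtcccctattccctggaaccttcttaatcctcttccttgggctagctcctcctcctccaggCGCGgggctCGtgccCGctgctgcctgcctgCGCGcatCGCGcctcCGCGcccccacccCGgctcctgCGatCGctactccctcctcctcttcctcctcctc
Gabra6: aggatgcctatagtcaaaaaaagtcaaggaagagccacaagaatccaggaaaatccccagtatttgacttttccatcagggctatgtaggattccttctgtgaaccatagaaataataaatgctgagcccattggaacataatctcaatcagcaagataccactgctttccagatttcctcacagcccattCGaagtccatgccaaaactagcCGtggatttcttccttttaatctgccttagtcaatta

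All 4 AMPA receptor subunits were higher in hypothalamus than in either other tissue. Gria2, whose product makes AMPA channels nearly impermeable to calcium, read 9.65 to 10.68 in hypothalamus (median 9.81), 7.97 to 8.62 in pituitary (median 8.10) and 3.81 to 4.63 in ovary (median 4.29). The tissues did not overlap, and hypothalamus stood 1.83 above pituitary (SE 0.17, adjusted p = 5.51e-08) and 5.74 above ovary (SE 0.17, adjusted p = 4.1e-15). Gria1 stood 2.53 (SE 0.21) and 5.41 (SE 0.21) above them, and Gria4 1.26 (SE 0.16) and 4.02 (SE 0.16). Gria3 had another order: it averaged 7.86 ± 0.41 (SD, n = 6) in hypothalamus, 5.66 ± 0.24 in pituitary and 5.78 ± 0.20 in ovary. Pituitary minus ovary was -0.12 (95% interval -0.44 to 0.20). The Gria2 promoter window holds a match to the core of repressor element 1, the site of REST, a repressor of neuronal genes outside neurons. That core of 15 bases, with any base allowed at 2 inner positions and both strands searched, occurs in 10 of 32851 windows of 300 bases (0.0304%), and Gria2 was the only match among the 29 members with a window. The match, in capitals, begins at -171 relative to the start site, in the stretch at chr3:80802952-80803046 (minus strand).
Gria2: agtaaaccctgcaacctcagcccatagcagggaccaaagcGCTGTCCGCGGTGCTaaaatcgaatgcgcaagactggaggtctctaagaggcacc
A second motif, the TATA box letters TATAAA, was searched on both strands too. It occurs in 13.6% of windows and in those of Gabra3, Gabrb2 and Grin3b, and the motifs do not overlap. The Gabra3 match lies on the opposite strand, so it reads TTTATA, at -123 in the stretch shown. The Gabrb2 match begins at -30 and the Grin3b match at -164. A match is a description of letters, not a measured site.

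Kainate receptor subunits stepped least between hypothalamus and pituitary among the 6 families, by median. Hypothalamus minus pituitary had a median of 0.79 over the 5 kainate genes against 2.02 over the 4 AMPA genes, and all 5 passed in every tissue contrast. Grik2, a core subunit, read 7.81 to 8.30 in hypothalamus (median 7.95), 7.34 to 8.06 in pituitary (median 7.50) and 4.46 to 5.28 in ovary (median 4.88). As with Gabra2, its pituitary and hypothalamus arrays overlapped and its ovary arrays lay below both: pituitary minus ovary was 2.76 (SE 0.15, adjusted p = 2.58e-11) and hypothalamus minus pituitary 0.40 (SE 0.15, adjusted p = 0.0362), a call lost under 8 of 13 alternatives. Grik1 stood 2.11 (SE 0.13) higher in pituitary than in ovary. Grik3 averaged 8.16 ± 0.26 (SD, n = 6), 7.46 ± 0.52 and 7.01 ± 0.39 in hypothalamus, pituitary and ovary; its pituitary minus ovary call (0.46, adjusted p = 0.0479) was lost under 9 of 13 alternatives. Of the subunits of high affinity, Grik4 averaged 7.43 ± 0.43, 5.68 ± 0.16 and 4.89 ± 0.26, and Grik5 averaged 8.83 ± 0.28, 7.98 ± 0.28 and 7.18 ± 0.13.

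NMDA receptors join the obligatory subunit Grin1, not analysed here, with glutamate-binding Grin2 or glycine-binding Grin3 subunits. Grin2b ran from 7.47 to 8.40 in hypothalamus (median 8.06), from 4.01 to 5.88 in pituitary (median 4.93) and from 4.62 to 5.02 in ovary (median 4.70); it stood 3.08 above pituitary (SE 0.21, adjusted p = 7.23e-10), and pituitary and ovary did not separate (0.18, 95% interval -0.26 to 0.61). Grin2d showed that order too, 2.21 (SE 0.16) above pituitary. Grin2a stepped from 5.89 ± 0.18 (SD, n = 6) through 4.71 ± 0.22 to 3.67 ± 0.25, and Grin3a from 8.34 ± 0.25 through 6.42 ± 0.23 to 4.46 ± 0.27. Grin2c was the second member higher in ovary than in pituitary (pituitary minus ovary -0.48, SE 0.17, adjusted p = 0.0259). That call was lost under 5 of 12 alternatives, with the mean of the gene's 2 clusters among them (-0.16, adjusted p = 0.359). Grin3b averaged 5.07 ± 0.16, 5.01 ± 0.17 and 5.04 ± 0.09 and passed in no contrast.

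The delta receptor Grid1, which binds cerebellins and not glutamate at synapses, averaged 8.68 ± 0.37 (SD, n = 6) in hypothalamus, 6.01 ± 0.42 in pituitary and 4.72 ± 0.10 in ovary. Metabotropic receptors were marked by hypothalamus alone: 6 of 7 were higher there than in each other tissue, while 1 of 7, Grm5, separated pituitary from ovary. Grm3, a group II receptor also found on astrocytes, read 8.13 to 8.34 in hypothalamus (median 8.23), 3.36 to 4.99 in pituitary (median 3.95) and 3.70 to 4.26 in ovary (median 4.09), and hypothalamus stood 4.16 (SE 0.22, adjusted p = 2.47e-11) and 4.20 (SE 0.22, adjusted p = 5.49e-12) above them. Its 6 hypothalamus arrays lay close together, and pituitary and ovary overlapped. Grm2, of the same group, stood 2.93 (SE 0.17) above pituitary. Grm5, coupled to calcium release, averaged 8.25 ± 0.32, 5.59 ± 0.33 and 4.40 ± 0.34, and pituitary minus ovary was 1.19 (SE 0.15, adjusted p = 1.88e-06). The group III receptors Grm4, Grm7 and Grm8 stood 1.90 (SE 0.17), 2.77 (SE 0.14) and 1.46 (SE 0.13) above pituitary, and Grm6, known from retinal bipolar cells, averaged 4.26 ± 0.19, 4.39 ± 0.14 and 4.36 ± 0.20.

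Most genes that make, clear or anchor these transmitters and receptors, from lists chosen by function, were higher in hypothalamus as well, with counts and differences given against pituitary first and ovary second. All 8 measured genes of GABA synthesis and transport were higher in hypothalamus than in pituitary and than in ovary, with Gad2 (a GABA-synthesising enzyme) 3.81 and 5.54 higher and Slc6a11 (a GABA uptake carrier) 4.19 and 6.62 higher. Of 6 genes of the GABA-B receptor, 4 and 5 were higher, with Gabbr2 at 3.92 and 5.67, and Kctd12b was lower than in ovary (-0.75). Glycine receptor subunits passed for 4 and 5 of 5, with Glrb at 2.04 and 6.22. Partners of GABA-A receptors passed for 10 and 8 of 12, and Gabarap was lower than in pituitary (-0.47). For glutamate synthesis and transport 7 and 8 of 9 were higher, with the vesicular carrier Slc17a6 at 1.94 and 5.68, and Slc17a8 was lower than in pituitary (-0.43). Auxiliary subunits of glutamate receptors passed for 14 and 13 of 15, with the AMPA partner Cacng2 at 3.39 and 3.98, while Gsg1l was lower than in ovary (-1.02). The cerebellins, ligands of delta receptors, passed for 3 of 4 against both tissues. Of the chloride carriers that set the direction of GABA currents, Slc12a5 was 3.42 and 4.62 higher, and Slc12a2 passed in neither. Kctd12b, Gabarap, Slc17a8, Gsg1l and Slc12a2 were picked after their values were seen. Between pituitary and ovary some lists split. Of GABA-A receptor partners 5 were higher in pituitary and 2 lower, of GABA-B receptor genes 3 and 1. The counts were 5 and 2 for glutamate synthesis and transport, 8 and 2 for auxiliary subunits, and 1 and 1 for chloride carriers. Other lists had calls toward pituitary only: 5 genes of GABA synthesis and transport, 3 glycine receptor subunits and 2 cerebellins. For stress minus control 0 genes of these lists passed in any tissue.

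The second question was whether transport altered receptor genes within a tissue. In hypothalamus 0 of 39 members passed (limma, lowest adjusted p = 1), as did 0% of all genes, and at an unadjusted p under 0.05 the counts were 0 members and 245 of 22180 genes (1.1%). In this fit, which leaves the differences between classes in the spread, the median interval of a member reached 0.57 to either side. Values lay below control for 29 of 39 members, a share of 74.36% against 55.5% of genes, and the members' median difference was -0.11 where that of all genes was -0.02. The members' median was -0.04 in the high class, -0.16 in the low class and -0.02 in the pool class. Over all classes it was -0.06 without the stressed high mouse, and -0.16 without the control high mouse or without the stressed pool; without both pools 0 members passed and it was -0.12. Lower values in all 3 classes were seen for 10 members (14.3% of genes) and higher values for 3 (9.23%). All 6 NMDA subunits lay below control (-0.06 to -0.32, median -0.18), as did 6 of 7 metabotropic receptors, while 3 of 4 AMPA subunits lay above it. Of these 4, none (0) was more than 0.08 from control. Marker lists of the brain went both ways in the same arrays. Above control lay 11 of 15 hypothalamus (median 0.08), 5 of 7 striatum (0.09) and 5 of 8 cerebellum markers (0.08). Below it lay 15 of 16 thalamus and epithalamus markers (-0.47) and 10 of 13 cortex and hippocampus markers (-0.15). So did 11 of 12 pan-neuronal markers (median -0.09), 8 of 9 astrocyte markers (-0.12) and 7 of 8 oligodendrocyte markers (-0.18). Ovarian markers lay above control for 12 of 13 (median 0.41, and 0.95 between the pools). As summed linear signal the pan-neuronal list ran from 19500 to 23100 in control and from 18700 to 22500 in stressed hypothalami. In the same order the astrocyte list ran from 4270 to 5270 and 3620 to 4930. The oligodendrocyte list ran from 5910 to 6310 and 5180 to 5690, and the ovarian list from 367 to 497 and 399 to 2520. No marker was at 0, and the part of these lists in the receptor values was not tested.

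Gabra4 had the largest hypothalamic difference. It read 8.47, 9.46 and 8.54 in the control high, low and pool samples and 7.36, 8.99 and 8.66 in the stressed ones. The stressed high mouse lay below all other arrays, the groups overlapped, and stress minus control was -0.48 (95% interval -1.46 to 0.49, limma adjusted p = 1), made up of -1.12, -0.46 and 0.13 in the 3 classes. Without the stressed high mouse it was 0.01. Markers of thalamus and epithalamus, brain regions that adjoin the hypothalamus, moved alongside: 15 of 16 lay below control with a median of -0.47, at -0.94, -0.50 and 0.04 in the 3 classes. Their summed linear signal was 4210 to 5690 in control and 2500 to 4590 in stressed hypothalami, and none was at 0. Their mean was 6.58 in the stressed high mouse and 7.32 to 7.83 on the other 5 arrays; their part in the receptor values was not tested.

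Only 3 members had stressed hypothalamus arrays wholly below control (2.6% of genes), and 0 wholly above (1.94%). Grm8 read 5.40, 5.0 and 5.37 in control and 4.85, 4.96 and 4.88 in stressed high, low and pool samples, a difference of -0.36 (95% interval -0.79 to 0.08). Gabrp read 3.80, 3.94 and 3.98 against 3.50, 3.78 and 3.42 (-0.34, interval -0.77 to 0.09), and Grin3b read 5.11, 5.29 and 5.13 against 5.08, 4.80 and 5.04 (-0.20, interval -0.62 to 0.22). Grin2b differed by -0.32 (interval -0.88 to 0.24), with -0.36, -0.44 and -0.15 by class. Without the stressed high mouse Grin2b stood at -0.12, and without the stressed low mouse Grin3b stood at -0.11. The largest positive values were small: Gabrg1 at 0.19, Gabrq at 0.18, Grik4 at 0.09 and Gria4 at 0.08, and each of these turned negative when 1 array was left out.

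**Figure D3:**
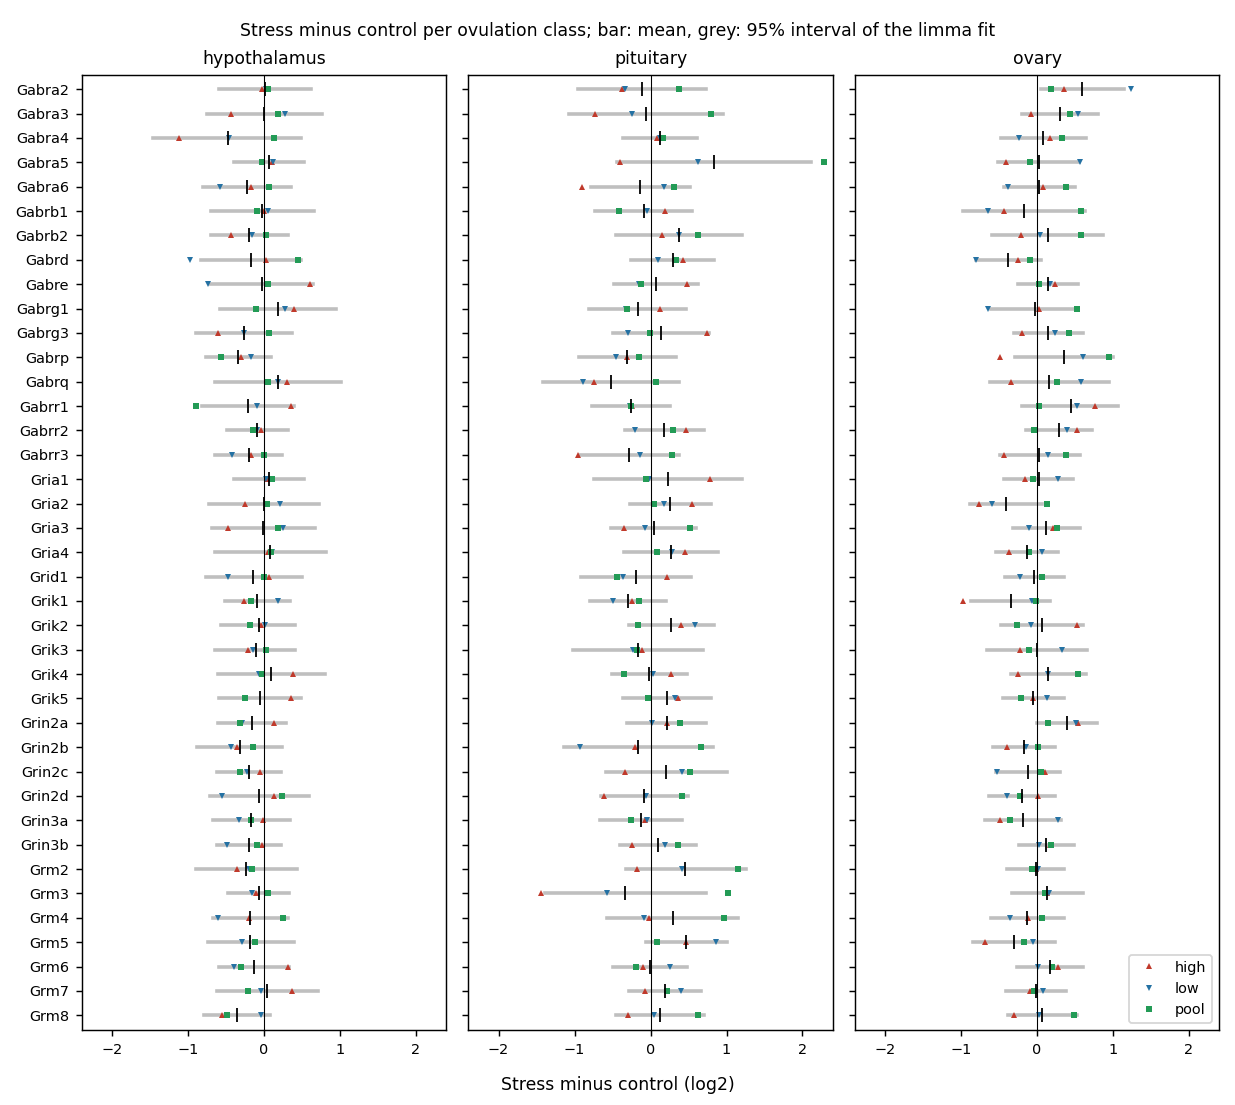
Stress minus control (log2) for each of the 39 members in 3 tissues: coloured symbols are the differences within the high, low and pool classes, the black bar is their mean, and the grey line is the 95% interval of the limma fit. The pituitary pools stand apart for Gabra5 (2.28), and the hypothalamic high mice for Gabra4 (-1.12).

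In pituitary 0 members and 0% of genes passed (lowest adjusted p = 1), and 0 members and 294 genes (1.33%) had an unadjusted p under 0.05. The members' median was 0.07, with -0.07, -0.05 and 0.16 in the high, low and pool classes, and -0.06 without the stressed pool. Values lay below control for 18 of 39 members (56.4% of genes), in all 3 classes for 5 (17.7%), and above it in all 3 classes for 7 (10.1%). Gabra5 read 6.48, 5.74 and 6.12 in control and 6.08, 6.36 and 8.41 in stressed high, low and pool samples, so the groups overlapped and the difference of 0.84 (95% interval -0.44 to 2.11) came with 2.28 between the pools. Without the stressed pool it was 0.11. Grm2 differed by 0.46 (interval -0.32 to 1.25), with -0.18, 0.42 and 1.15 by class, and Gabrb2 by 0.38 (interval -0.45 to 1.21); without the stressed pool they stood at 0.08 and 0.04. Downward, Gabrq differed by -0.52 (interval -1.42 to 0.38), Grm3 by -0.33 (interval -1.39 to 0.73) and Gabrp by -0.31 (interval -0.94 to 0.33); without the stressed pool Gabrq stood at -0.98 and Grm3 at -0.88, and without the stressed low mouse Gabrp stood at -0.09.

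Without overlap, Grm5 was the only member higher in stressed pituitary (2.4% of genes) and Grik1 the only one lower (3.68%). Grm5 read 5.28, 5.11 and 5.68 in control and 5.75, 5.96 and 5.77 in stressed samples (0.47, interval -0.06 to 1.0). Grik1 read 6.11, 6.10 and 6.22 against 5.86, 5.60 and 6.07 (-0.30, interval -0.80 to 0.20). Leaving out 1 array kept Grm5 between 0.35 and 0.63 and Grik1 between -0.41 and -0.18.

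The stressed pituitary pool read above all 4 single-mouse pituitaries on 22 members (32% of genes), and the control pool on 17 (32.1%). Over the 16 members at least 2 higher in hypothalamus than in pituitary, the stressed pool's median excess over the single mice was 0.73. Over the other 23 members it was 0.29, and over all genes 0.02. In the control pool the 2 groups of members gave 0.13 and 0.09. The 16 were chosen on these same arrays, and all genes were not split in that way. Both pools read above every single mouse on 13 of 39 members (24.4% of genes). They read below every single mouse on 3 (18.7%), Gabra2, Gria2 and Gria4, for example Gabra2 at 8.07 and 8.45 against 8.95 to 9.33. The pool differences of the cortex and hippocampus list had a median of 0.21 over 13 genes, and its mean was 5.66 in the stressed pool against 4.95 to 5.10 on the other pituitary arrays, with Slc17a7, the vesicular glutamate carrier of cortex, at 8.20 against 5.46 to 6.08. That carrier had the largest pool difference on the list (2.13). Nrgn (1.58), Emx2 (1.28), Lamp5 (1.20) and Camk2a (0.91) also read higher in the stressed pool than in the control pool. Others differed little, as Tbr1 (0.02), Fezf2 (-0.01) and Neurod6 (-0.16), all cortical transcription factors. These genes were picked after their values were seen. Pan-neuronal markers averaged 8.43 in that pool against 7.44 to 8.06. The summed linear signal of the cortex and hippocampus list was 533 to 718 in control and 553 to 1260 in stressed pituitary. Astrocyte markers averaged 6.77 in that pool against 5.63 to 6.12 (summed 559 to 808 in control and 537 to 1390 in stressed pituitary), and the hypothalamic list averaged 5.65, within the 5.33 to 5.83 of the others. None of these markers was at 0, and their part in the receptor values was not tested.

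**Figure D4:**
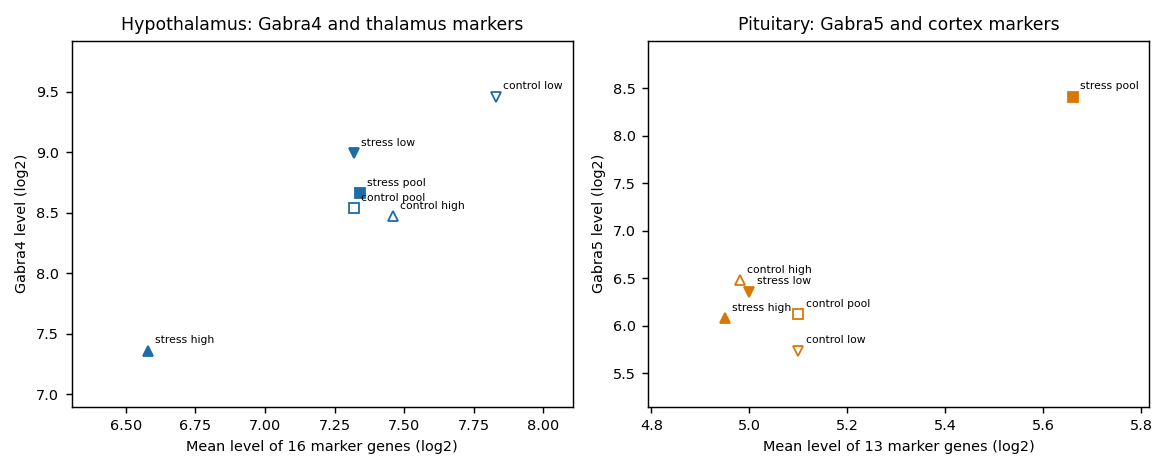
Left, Gabra4 level against the mean of 16 thalamus and epithalamus markers in hypothalamus; right, Gabra5 level against the mean of 13 cortex and hippocampus markers in pituitary (all log2; symbols by ovulation class, open control, filled stress). The stressed high mouse lies lowest on both axes at left (7.36 and 6.58), and the stressed pool highest on both at right (8.41 and 5.66).

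In ovary 0 members and 0% of genes passed (lowest adjusted p = 0.999), with 2 members and 592 genes (2.67%) at an unadjusted p under 0.05. The members' median was 0.03, and 17 of 39 lay below control (53.2% of genes), in all 3 classes for 3 (19.3%), while 7 lay above it in all 3 (17%). Of the 16 GABA-A subunits 13 lay above control, with a median of 0.14, but their median was -0.14 in the high class, where 9 of 16 lay below control, against 0.20 and 0.35 in the low and pool classes. Stressed arrays lay wholly above control for 3 members (4.71% of genes) and wholly below for 1 (4.07%). Gabra2 read 3.81, 3.03 and 3.73 in control and 4.15, 4.28 and 3.92 in stressed high, low and pool ovaries, a difference of 0.59 (interval 0.05 to 1.14, limma adjusted p = 0.999) of which the low mice gave 1.24. Grin2a read 3.32, 3.42 and 3.67 against 3.86, 3.93 and 3.81 (0.40, interval 0.00 to 0.79, adjusted p = 0.999), and Grin3b differed by 0.12. Gabrd read 5.20, 5.43 and 5.15 against 4.95, 4.63 and 5.07 (-0.38, interval -0.81 to 0.05). For Gabra2 and Grin2a these ovarian levels lay at the bottom of the gene's own range over tissues, below every hypothalamus and pituitary array. Among members with overlapping groups Gabrr1 differed by 0.44, Gabrp by 0.36, Gria2 by -0.41, Grik1 by -0.35 and Grm5 by -0.31. With 1 array left out Gabrr1 ran from 0.17 (without the control high mouse) to 0.61, Gabrp from 0.09 (without the control pool) to 0.64, Grik1 from -0.50 to -0.15 and Grm5 from -0.52 to -0.08 (both weakest without the stressed high mouse), and Gria2 from -0.55 to -0.28. Gabra2 stood at 0.34 without the control low mouse, and Gabrd at -0.25 without the stressed low mouse. The pituitary markers present in the ovary pools summed to 307 to 3250 in control and 247 to 4680 in stressed ovaries as linear signal; their part was not tested.

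The stress difference itself was compared between tissues. In the hypothalamus minus pituitary, hypothalamus minus ovary and pituitary minus ovary interactions 0 members and 0% of genes passed (lowest adjusted p = 1), with 1, 1 and 2 members at an unadjusted p under 0.05 against 3.49%, 2.24% and 3.63% of genes. Grm5 had the smallest unadjusted p of the members in 2 of them: its stress difference was 0.78 higher in pituitary than in ovary (interval 0.16 to 1.40) and 0.65 lower in hypothalamus than in pituitary (-0.65, interval -1.27 to -0.03). The others named by smallest p were Grm2 (-0.70, hypothalamus minus pituitary), Grin2a (-0.56) and Gabrp (-0.70, both hypothalamus minus ovary) and Gabrd (0.67, pituitary minus ovary).

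Ovulation class was set against receptor levels in hypothalamus, high minus low, with 2 mice a side, 1 control and 1 stressed. Class and treatment were fitted on all hypothalamus arrays, so the pools enter the spread, and only 2 residual degrees of freedom were left. No member (0) and 0% of genes passed (limma, lowest adjusted p = 0.135). At an unadjusted p under 0.05 there were 14 members, against 19.27% of genes. Of these members 13 were lower in the high mice (11% of genes) and 1, Grin2d, higher (8.26%). The members' median was -0.26, against 0.03 over all genes, and 24 of 39 lay below 0. The 4 members of the chromosome 5 cluster, a grouping seen after the values, had the smallest p-values of the 39. Gabrg1 read 8.31 and 8.71 in the control and stressed high mice and 9.37 and 9.64 in the low ones, a difference of -1.0 (SE 0.19, interval -1.45 to -0.55, adjusted p = 0.135). Gabra2 read 9.16 and 9.14 against 9.85 and 9.87 (-0.71, SE 0.16, adjusted p = 0.136). The low mice lay above the high mice in both groups, and the pools lay between them, at 9.32 and 9.21 for Gabrg1 and 9.27 and 9.32 for Gabra2. The thalamus and epithalamus markers also differed, with means of 7.46 and 6.58 in the high mice and 7.83 and 7.32 in the low ones; their part in the receptor values was not tested.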

How the data were processed

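RNA of 18 samples was hybridised to Affymetrix Mouse Gene 2.0 ST arrays, from 6 ug of total RNA extracted with Trizol and labelled with biotin, per the labels. The deposited values are log2 levels per transcript cluster that the authors made with Transcriptome Analysis Console, per the submitters' processing notes. Its version, normalization and genome build are not given in the sources used here. Coordinates of array clusters are therefore left out. The log base was read from the range, whose highest value of 13.66 exceeds a natural log of the largest 16-bit reading (11.09). Of 41345 clusters, 23521 name 1 gene; the cluster of highest mean over 18 arrays stood for each of 22180 genes, with no filter.

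Stress was compared with control within each tissue in limma 3.58.1 (R 4.3.3), on 3 against 3 arrays. Tissues and interactions were fitted over the 18 arrays, taking the animal as random block (correlation 0.270). Benjamini-Hochberg adjustment ran over all genes, with a threshold of 0.05; tests are two-sided and were tested on simulated data. The genes named are members that passed, members without overlap between groups, the 4 largest differences in each direction (for interactions and high minus low, the 2 smallest p-values), and up to 4 genes per pathway list. The members and lists were chosen with earlier results of these data known. Deviations of same-class control and stress samples correlated at 0.359 to 0.727 and others at -0.521 to 0.321. Pool with pool gave the highest values, 0.660 to 0.727. Between single mice in pituitary, same-class pairs gave 0.366 and 0.359 and other pairs 0.321 and 0.313. The pools of the 2 treatments therefore deviated alike, while in pituitary same-class single mice did so hardly more than others. Pooling is common to both pools, so their values cannot tell a pairing of animals from pooling. Deviations within a group sum to 0, which ties these values. Figures were drawn with matplotlib 3.10.9 (Python 3.11.15). Promoter windows are RefSeq's, with 250 bases before and 50 after a start.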

Additional observations from a re-analysis of the deposited data

Results flagged for a closer look

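In groups of 6 arrays of a tissue, a sample was picked out when its gap to the nearest array, divided by the whole range, exceeded Dixon's 95% critical value, which chance passes in about 1 of 20 groups. Of 117 groups of members and tissues, 3 did so, fewer than that rate gives. The share of all genes picked out this way was not counted, so the flags cannot be called particular to receptor genes. Each time the array was the stressed pituitary pool. Gabra5 read 8.41 there against 5.74 to 6.48 on the other pituitary arrays (ratio 0.723). For Grm4 the reading was 5.97 against 4.57 to 5.0 (ratio 0.696). Grm2 read 6.90 against 5.39 to 5.85 (ratio 0.693).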

How the results depend on the processing

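Alternatives were a replicate block, quantile normalization, median centring, a filter at the median level, the mean of a gene's clusters, 1 fit of all arrays, no animal block, control arrays only, no pool arrays and leaving out each array or animal. For stress minus control 0 members passed in any tissue under any of them. With ovulation class as a replicate block 0 members passed, and at an unadjusted p under 0.05 the members numbered 1 in hypothalamus (923 genes), 0 in pituitary (1110) and 3 in ovary (2198). The pituitary member median ran from -0.06 (without the stressed pool) to 0.13 with 1 array left out. In hypothalamus, leave-one-out values changed sign for Gabra4 (-0.81 to 0.01), Gabrg1 (-0.16 to 0.43), Gabrq (-0.11 to 0.53), Grik4 (-0.12 to 0.37) and Gria4 (-0.18 to 0.33). Members lower in pituitary than in ovary numbered 1 with no animal block, 1 under the filter and 1 with the mean of clusters (Gabra3 in each), and 1 to 2 with 1 animal left out; members lower in hypothalamus than in ovary numbered 0 to 1. Leaving out an animal, members higher in hypothalamus than in pituitary numbered 30 to 32. The cause of these shifts was not tested, except that under the filter 24 of 39 members remain. Tissue calls were also lost with 1 animal left out for Gabra2 between hypothalamus and pituitary (0.41 without the control pool, 0.52 without the stressed low mouse or the stressed pool), Grik2 there (0.44 without the control high mouse, 0.34 when either the control low mouse or the pool of stressed mice was left out, 0.40 without the stressed low mouse), Gabrr2 there (0.27 and 0.32 without the control high and low mouse, 0.33 and 0.23 without the stressed high and low mouse) and Gabrd there (0.42 without the control low mouse). Between pituitary and ovary this befell Grik3 (0.39 to 0.49, without any animal but the control high mouse) and Grin2c (-0.48 and -0.37 without the control high and low mouse, -0.29 without the stressed high mouse). On control arrays only, Gabrd also lost its call against ovary (0.51) and Grik3 against pituitary (0.67). Genes at an unadjusted p under 0.05 in pituitary numbered 294, and 1578 without the pools; in ovary these counts were 592 and 1398. Without the pools 1 gene, not a member, passed in the hypothalamus minus pituitary interaction and 1 in the hypothalamus minus ovary one. Detection above background was not used here, so no floor is given for low levels.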

Other observations

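Among the 15 auxiliary subunits of glutamate receptors, 2 were higher in ovary than in pituitary, and both were picked out after their values were seen. Shisa6, an AMPA receptor partner, stood 2.77 below ovary in pituitary (-2.77, adjusted p = 6e-09, limma) and differed by 0.04 between hypothalamus and ovary (adjusted p = 0.898). Gsg1l, another AMPA partner, was lower in pituitary than in ovary (-1.73, adjusted p = 8.71e-10) and lower in hypothalamus than in ovary as well (-1.02, adjusted p = 6.71e-07).

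The cluster not used is given here for 3 of the 5 members with 2 clusters, members chosen after their values were seen. For Grin2b it averaged 4.34, 3.78 and 3.66 in hypothalamus, pituitary and ovary, where the cluster used averaged 8.02, 4.94 and 4.76. For Grin2c it averaged 2.99, 2.88 and 2.72 against 6.03, 4.55 and 5.03. For Grm7 it averaged 4.82, 4.39 and 4.31 against 7.60, 4.83 and 4.98.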
